A study of Mus musculus with 82 samples.

Results

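The SoxF genes of the mouse are Sox17, Sox7 and Sox18, and the data described here are the ChIP-seq peaks of tagged Eomes and Brachyury around them. A peak belongs to a SoxF gene when its midpoint lies within 100 kb of the span of that gene. The rule uses position only, and it gave 41 peaks of the 132113 in 4 deposited peak lists: 8 of 30129 EoGFP peaks, 6 of 27588 BraGFP peaks, 12 of 36203 EoVP16 peaks and 15 of 38193 EoV5 peaks. Of the 41, 14 lay near Sox17, 7 near Sox7 and 20 near Sox18.

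The cells were mouse embryonic stem cells of the A2lox.Cre line, in which a doxycycline-inducible construct is placed at a fixed locus. They lacked functional Eomes and Brachyury (dKO), and the uninduced controls of the study carried the same loss. Per the labels they were grown as embryoid bodies, received activin A at 30 ng/ml and doxycycline between day 2 and day 5, and were fixed on day 5. The labels give the doxycycline dose as 5 µg/ml in the growth protocol and as 5 mg/ml in the treatment protocol. The 4 constructs were dKO+EoGFP (Eomes with a GFP tag, 2 libraries), dKO+BraGFP (Brachyury with a GFP tag, 2 libraries), dKO+EoVP16 (a fusion of Eomes with the VP16 activation domain, 1 library) and dKO+EoV5 (Eomes with a V5 tag, 1 library). Antibodies against GFP served for EoGFP and BraGFP, and antibodies against V5 for EoVP16 and EoV5. The proteins were expressed from doxycycline-driven transgenes in cells with no functional endogenous copy, so levels and timing were set by the transgene. The series holds 82 samples, of which the 6 libraries above stand behind the lists, and its RNA-seq, ATAC-seq, H3K27ac, input and uninduced libraries were not used here.

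Eomes and Brachyury belong to the T-box family of transcription factors. Both act in the primitive streak, where cells leave the epiblast to form mesoderm and definitive endoderm. SoxF proteins are transcription factors that bind DNA through an HMG box. Sox17 is a core factor of definitive endoderm and is also active in primitive endoderm and arterial endothelium. Sox7 is known from primitive endoderm and from early blood and vascular cells, and Sox18 from endothelium, where it takes part in the formation of lymphatic vessels.

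Each list is a single peak set, kept at a minimum pileup that differs between lists. Pileup is the number of fragments stacked at the summit, the highest point of a peak. The minimum was 120 for EoGFP, 40 for BraGFP, 36 for EoVP16 and 60 for EoV5. Heights were deposited for EoVP16 and EoV5, while the EoGFP and BraGFP lists give positions only. A site missing from a list may therefore have signal under that list's minimum. No replicate test was possible with 1 list per construct, library depth is unknown here, and 95% intervals (exact Poisson for pileups, Wilson for shares) cover counting error only. PCR copies of 1 molecule cannot be recognised in these lists. Positions are given on GRCm38 (mm10). The gene table holds no strand for these genes, so the ends of a gene are called lower and upper by coordinate.

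Near Sox18, the tallest EoVP16 and EoV5 peaks and 3 of the 5 EoGFP peaks overlapped promoters of neighbouring genes. The RefSeq promoter table (GRCm38.p6) held none of the 3 SoxF genes (0 of 3 matched). Printed below are windows from 250 bases before to 50 bases after the start of Uckl1, a uridine-cytidine kinase-like gene, Prpf6, a splicing factor gene, and Rgs19, a regulator of G protein signalling. They are shown as the promoters where peaks of at least 2 lists, counted for Sox18, lie closer to another gene. Of the further windows that such peaks overlap, second starts of Uckl1 and Rgs19 are left out, as is Zfp512b, which an EoVP16 peak alone covers. Capitals mark the 21 bases centred on the EoVP16 summit. No summit fell in the Uckl1 window, which therefore has no capitals.
Uckl1, chr2:181581933-181582232, minus strand: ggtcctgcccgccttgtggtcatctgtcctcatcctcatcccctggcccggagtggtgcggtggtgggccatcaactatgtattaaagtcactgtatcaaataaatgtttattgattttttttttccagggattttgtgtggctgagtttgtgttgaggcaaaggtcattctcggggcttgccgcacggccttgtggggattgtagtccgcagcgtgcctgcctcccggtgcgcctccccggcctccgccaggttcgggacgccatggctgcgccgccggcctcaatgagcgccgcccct
Prpf6, chr2:181601069-181601368, plus strand: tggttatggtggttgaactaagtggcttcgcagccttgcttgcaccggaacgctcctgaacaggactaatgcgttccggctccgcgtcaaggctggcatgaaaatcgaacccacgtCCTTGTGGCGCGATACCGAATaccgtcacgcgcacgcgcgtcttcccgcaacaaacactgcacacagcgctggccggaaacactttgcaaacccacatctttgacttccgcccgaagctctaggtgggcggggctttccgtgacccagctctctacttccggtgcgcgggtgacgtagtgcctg
Rgs19, chr2:181693761-181694060, minus strand: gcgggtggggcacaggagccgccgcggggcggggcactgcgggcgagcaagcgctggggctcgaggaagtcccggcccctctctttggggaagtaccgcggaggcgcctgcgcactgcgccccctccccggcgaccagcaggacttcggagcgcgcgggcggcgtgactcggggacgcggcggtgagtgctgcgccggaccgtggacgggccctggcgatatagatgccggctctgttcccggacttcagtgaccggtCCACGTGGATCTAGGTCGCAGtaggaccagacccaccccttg

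The Uckl1 window was covered whole by an EoGFP and an EoVP16 peak and in part by an EoV5 peak, whose summits lay 338 bases (EoVP16) and 299 bases (EoV5) downstream of the start. In the Prpf6 window the EoVP16 summit lay upstream, at position -124 relative to the start, and in the Rgs19 window it lay 18 bases downstream. The letters GTGTGA, the core of a T-box half-site, were searched on both strands (reverse TCACAC). They were in none of these 3 windows, and 14.5% of the 32851 promoters in the table hold them. The longer AGGTGTGA, which contains the first motif, was in none of the 3 and in 1.28% of all promoters. G and C made up 58.7% of the Uckl1 window, 59.0% of the Prpf6 window and 72.7% of the Rgs19 window, against a median of 52.7% over all promoters.

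**Figure D1:**
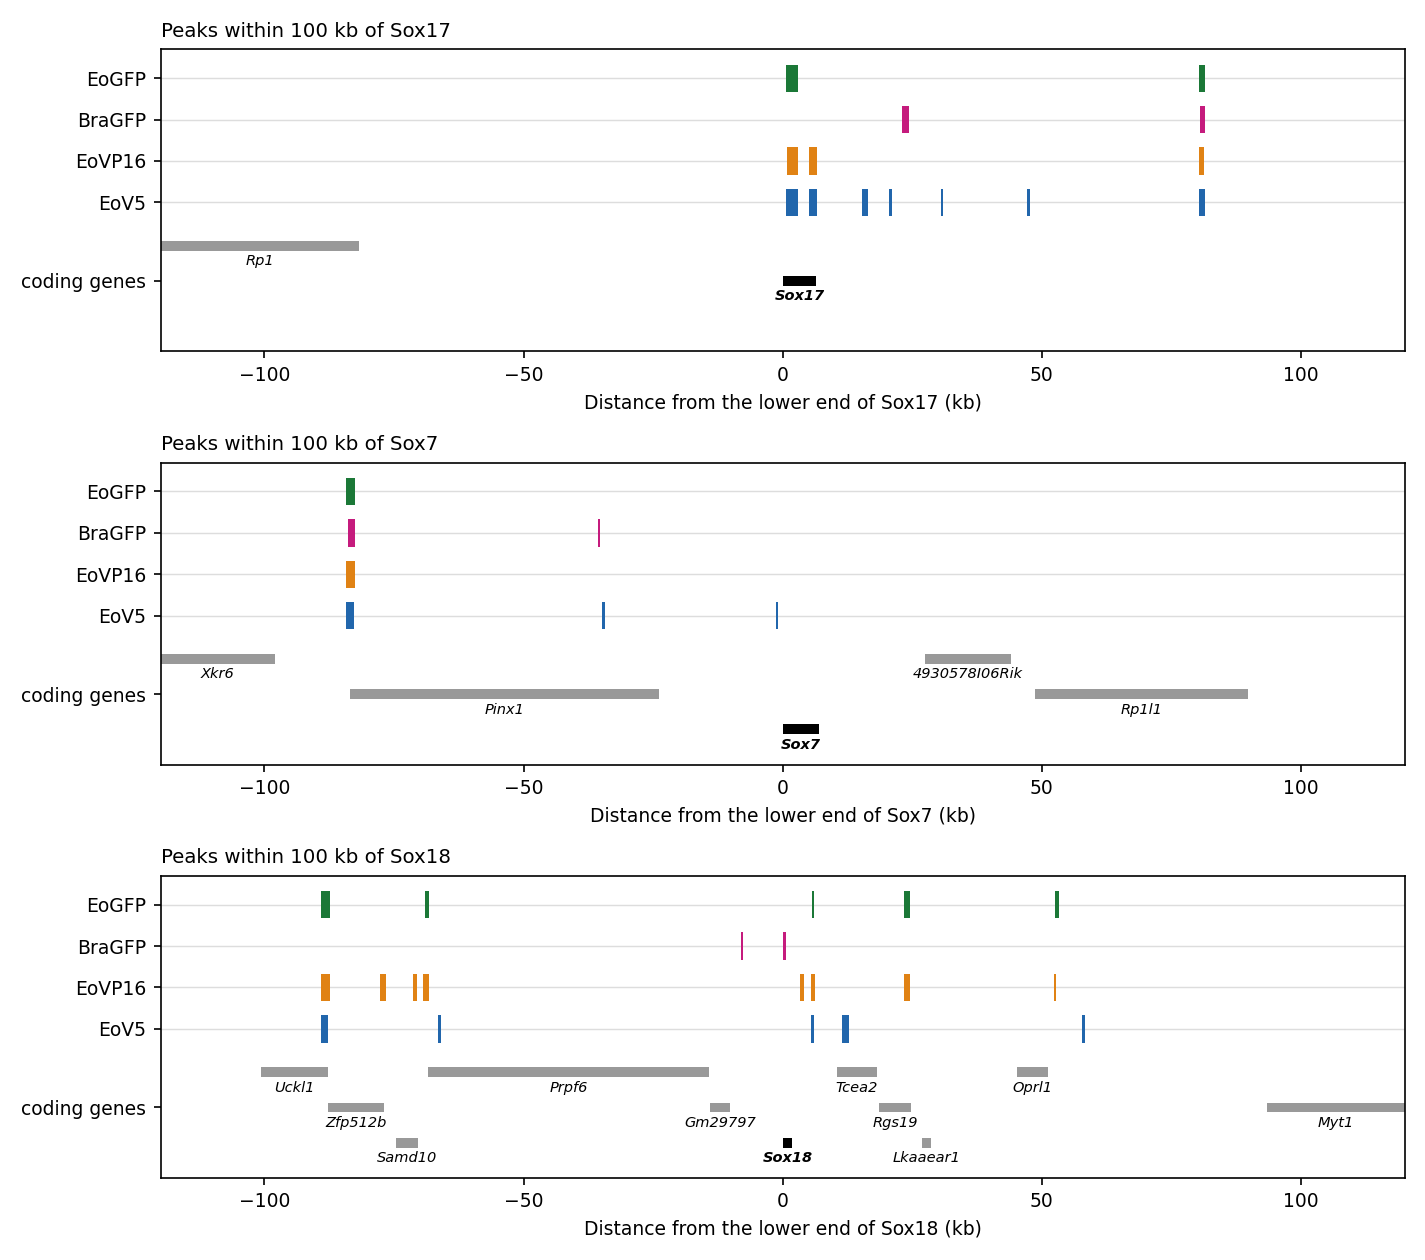
Peaks of EoGFP, BraGFP, EoVP16 and EoV5 (coloured boxes, to scale) around Sox17, Sox7 and Sox18, with distance in kb from the lower end of the gene on the x axis. Boxes in the bottom rows of each panel are coding genes, the SoxF gene in black. A column of 4 boxes stands 74.4 kb beyond the upper end of Sox17 and another at Pinx1, 83.4 kb from Sox7, while none of the 13 regions near Sox18 has all 4. Over the whole lists, 8.30% of regions have all 4.

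Sox17 (chromosome 1, 4490928 to 4497426) had peaks inside the gene in all 3 Eomes lists and none there in the BraGFP list. Eomes peaks also lay nearer than BraGFP peaks over all coding genes. The median distance to the nearest peak was 0.174 kb for EoGFP, 0 kb for EoVP16, 1.25 kb for EoV5 and 7.23 kb for BraGFP. The counts of Sox17 within 100 kb were 2 EoGFP, 2 BraGFP, 3 EoVP16 and 7 EoV5 peaks. The window is sparse in genes: Rp1, a photoreceptor gene, was the only other coding gene that touched it. Sox17 was the nearest coding gene of all 14 peaks, and none of them lay within 1 kb of an end of another coding gene. No peak was called on the lower side of Sox17, so all peaks were inside the gene or on its upper side.

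The region inside Sox17 (4491506 to 4493966) was held by the EoGFP, EoVP16 and EoV5 lists. The 3 peaks there were broad. The EoGFP peak was 2426 bp wide, wider than 98.2% of its list. The EoVP16 peak spanned 2304 bp and was wider than 96.4% of its list, and the EoV5 peak spanned 2351 bp and was wider than 95.9%. Their heights were less extreme than their widths. The EoVP16 pileup was 56 fragments (42.3 to 72.7), above 53.2% of its list, and the EoV5 pileup was 133 fragments (111 to 158), above 67.8% of its list.

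A second region (4496013 to 4497623) covered the upper end of Sox17 and was held by EoVP16 and EoV5. Both peaks there were low in their lists. The EoVP16 pileup was 38 fragments (26.9 to 52.2), above 8.34% of that list, and the EoV5 pileup was 62 fragments (47.5 to 79.5), above 2.07% of that list. These heights are close to the minimum of each list, and the absence of an EoGFP peak was recorded at a minimum of 120.

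The region of Sox17 that all 4 lists shared lay farther out, 74.4 kb beyond the upper end (4571236 to 4572436), within the span of the gene model Gm37323. Its peaks were 1133 bp wide in EoGFP, 994 bp in BraGFP, 1045 bp in EoVP16 and 1027 bp in EoV5. It held the tallest EoVP16 peak near Sox17, at 110 fragments (90.4 to 133), above 92.0% of the list. The EoV5 peak had 99 fragments (80.5 to 121) and stood in the middle of its list, above 49.6% of it. It was the only region near Sox17 where an Eomes peak and a BraGFP peak overlapped.

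Between the gene and that distal region lay 4 peaks held by EoV5 alone and 1 held by BraGFP alone. The EoV5 peak 9.38 kb from the gene (4506310 to 4507297) was the tallest EoV5 peak near Sox17, with 160 fragments (136 to 187), above 75.9% of the list. The others lay 14.2 kb away with 83 fragments (66.1 to 103), 24.2 kb away with 73 fragments (57.2 to 91.8) and 41.0 kb away with 136 fragments (114 to 161). The peak at 9.38 kb thus exceeded the EoV5 peak at the region shared by all 4 lists, and their Poisson intervals did not overlap. The BraGFP peak (4513921 to 4515292) lay 17.2 kb from the gene and at 1372 bp was wider than 92.5% of the BraGFP list.

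Sox7 (chromosome 14, 63943706 to 63950732) had the fewest peaks of the 3 genes, and few of them were closer to Sox7 than to another gene. The counts within 100 kb were 1 EoGFP, 2 BraGFP, 1 EoVP16 and 3 EoV5 peaks. All 7 lay on the lower side. Sox7 was the nearest coding gene of 1 of the 7. The other 6 had Pinx1, a telomerase-inhibitor gene, as their nearest coding gene.

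The peak nearest to Sox7 was an EoV5 peak 1.11 kb from the lower end of the gene (63942337 to 63942864). Its pileup was 63 fragments (48.4 to 80.6), above 4.01% of the EoV5 list, and the other 3 lists had no peak there. The nearest BraGFP peak was 35.5 kb away, and the nearest EoGFP and EoVP16 peaks were both 83.4 kb away. The BraGFP peak at 35.5 kb (63908056 to 63908424) and an EoV5 peak at 34.6 kb (63908799 to 63909379, 62 fragments, 47.5 to 79.5) stood side by side inside Pinx1 without overlapping.

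The remaining 4 peaks near Sox7, 1 per list, formed a region at an end of Pinx1 (63859415 to 63861180). The EoGFP peak was 1761 bp wide and the BraGFP peak 1373 bp, each wider than 92.5% of its list. The EoVP16 pileup was 82 fragments (65.2 to 102), above 81.3% of that list, and the EoV5 pileup was 92 fragments (74.2 to 113), above 43.9%. Without peaks within 1 kb of an end of another coding gene, an alternative chosen after seeing the data, Sox7 kept no EoGFP and no EoVP16 peak.

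Sox18 (chromosome 2, 181669837 to 181671640) had 5 EoGFP, 2 BraGFP, 8 EoVP16 and 5 EoV5 peaks within 100 kb. It lies among many genes, and 10 other coding genes touched its window. Sox18 was the nearest coding gene of 5 of its 20 peaks, and 9 of the 20 lay within 1 kb of an end of another coding gene. No region near Sox18 held both an Eomes peak and a BraGFP peak, and the window had 2 BraGFP peaks. Over the whole lists, 27.1% of EoGFP, 25.7% of EoVP16 and 20.9% of EoV5 peaks overlapped a BraGFP peak.

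The Eomes lists agreed on a region 4.06 kb beyond the upper end of Sox18 (181675360 to 181676039). Its EoGFP peak was 532 bp wide, narrower than most of that list, with 12.0% of the list narrower still. The EoVP16 pileup was 123 fragments (102 to 147), above 94.2% of its list. The EoV5 pileup was 68 fragments (52.8 to 86.2), above 13.5% of its list. The same site was therefore near the top of the EoVP16 list and near the bottom of the EoV5 list.

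The BraGFP list had a peak inside Sox18 (181669947 to 181670434, 488 bp) and one 7.80 kb beyond the lower end (181661795 to 181662272, 478 bp). Neither overlapped a peak of an Eomes list. Both were of less than median width, with 36.7% of the BraGFP list narrower than the peak inside the gene and 35.0% narrower than the other. Over the whole BraGFP list, 29.3% of peaks overlapped an EoGFP peak, 34.0% an EoVP16 peak and 29.4% an EoV5 peak. EoVP16 alone had a peak 1.98 kb beyond the upper end (181673271 to 181673977), with 41 fragments (29.4 to 55.6), above 18.6% of the list. EoV5 alone had a peak 10.3 kb out, inside the elongation factor gene Tcea2 (181681330 to 181682585), with 204 fragments (177 to 234), above 83.6% of the list.

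The tallest peaks of the Sox18 window stood 88.2 kb away (181580753 to 181582450). They overlapped the Uckl1 promoter window printed above, with their summits outside it. There EoVP16 had 277 fragments (245 to 312), above 99.4% of its list, and EoV5 had 364 fragments (328 to 403), above 94.3% of its list. The EoGFP peak there spanned 1696 bp, wider than 91.3% of the EoGFP list. At the Prpf6 promoter, EoGFP and EoVP16 had peaks, the EoVP16 one with 47 fragments (34.5 to 62.5). At the Rgs19 promoter the same pair of lists had peaks, with 40 EoVP16 fragments (28.6 to 54.5). EoVP16 alone had peaks at ends of Zfp512b, a zinc-finger gene, with 43 fragments (31.1 to 57.9), and of Samd10, with 40 fragments (28.6 to 54.5). Near the opioid-related receptor gene Oprl1, EoGFP and EoVP16 shared a region 51 kb from Sox18 (38 EoVP16 fragments, 26.9 to 52.2), and EoV5 alone had a peak 56.3 kb from Sox18 (71 fragments, 55.5 to 89.6). A further peak of EoV5 alone, with 63 fragments (48.4 to 80.6), lay inside Prpf6.

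**Figure D2:**
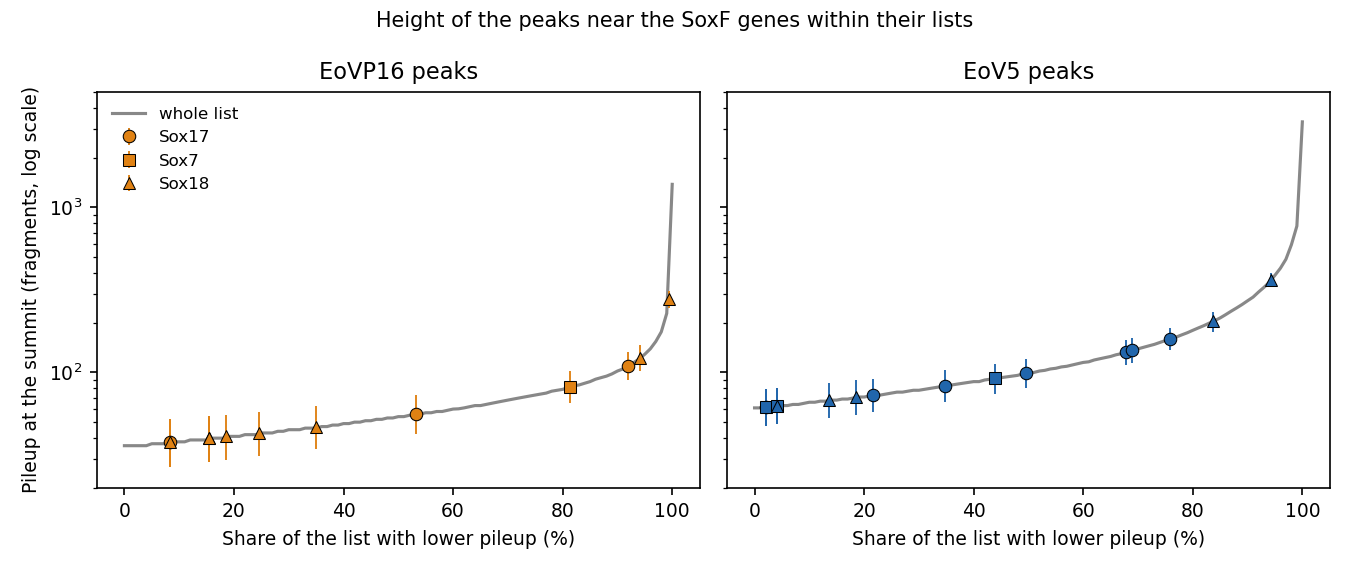
Pileup at the summit in fragments (y axis, log scale) against the share of the list with a lower pileup (x axis), for EoVP16 and EoV5. The line is the whole list, points are the peaks near each SoxF gene and bars are exact 95% Poisson intervals. The highest point in each panel is the Sox18-window peak at Uckl1, with 277 EoVP16 and 364 EoV5 fragments.

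As a group, SoxF peaks were not tall for their lists. The 12 EoVP16 peaks had pileups between 38 and 277 fragments with a median of 45, against a median of 54 over the whole list (interquartile range 43 to 73). The 15 EoV5 peaks had pileups between 62 and 364 fragments with a median of 83, against 99 over the whole list (75 to 156). In each list, 5 SoxF peaks exceeded the list median. By width, 5 of 8 EoGFP, 3 of 6 BraGFP, 9 of 12 EoVP16 and 7 of 15 EoV5 peaks were wider than the median of their list. These counts are small, and a difference in width between lists was not tested.

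Peaks near genes were the rule in these data, so the presence of a peak near a SoxF gene carries little information by itself. All 3 SoxF genes had peaks of each of the 4 lists within 100 kb, as did 80.5% of the 21887 coding genes. By list, 87.2% of coding genes had an EoGFP peak within 100 kb, 85.3% a BraGFP peak, 89.6% an EoVP16 peak and 89.9% an EoV5 peak. Within 10 kb, EoGFP peaks were near 2 of the 3 SoxF genes (Sox17 and Sox18) and near 65.2% of coding genes. BraGFP peaks were within 10 kb of Sox18 alone among the 3, and of 53.0% of coding genes. EoVP16 peaks were within 10 kb of Sox17 and Sox18, and of 71.1% of coding genes. EoV5 peaks were within 10 kb of all 3, and of 62.2% of coding genes.

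**Figure D3:**
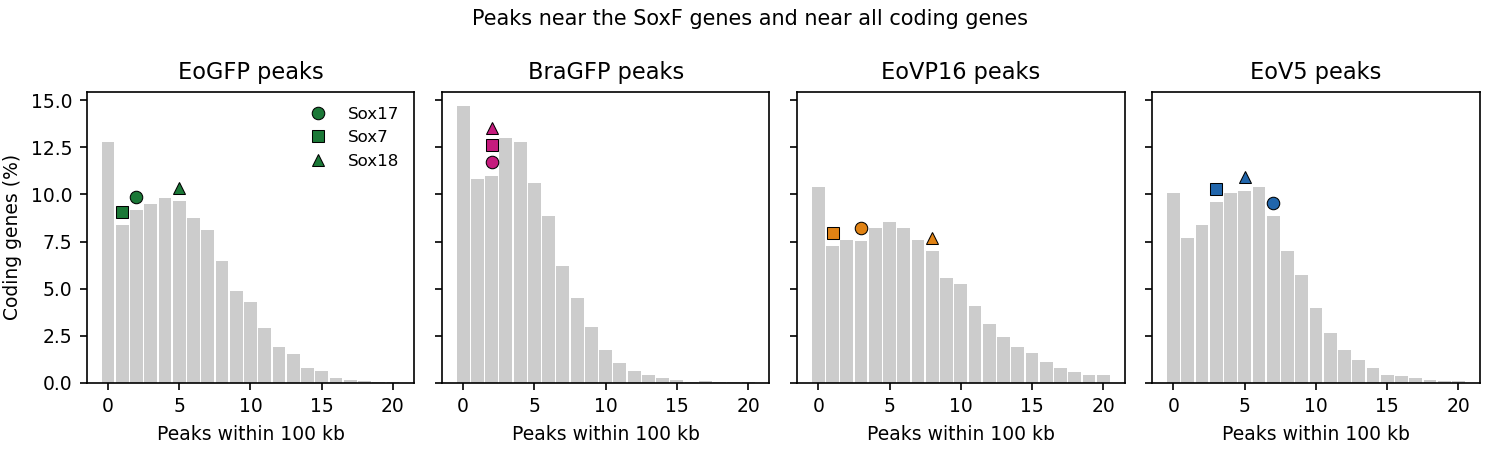
Number of peaks within 100 kb (x axis, shown up to 20) of all 21887 coding genes as a share in % (grey bars, y axis), for EoGFP, BraGFP, EoVP16 and EoV5. Symbols mark the bar of Sox17, Sox7 and Sox18 and are stacked above it where genes share a count. All 3 genes had 2 BraGFP peaks, and Sox18 had the most EoVP16 peaks of the 3, with 8.

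The number of peaks was below the median of coding genes in 3 lists for Sox17 and in all 4 for Sox7. Coding genes had a median of 5 EoGFP peaks within 100 kb (interquartile range 2 to 7), 4 BraGFP peaks (1 to 6), 6 EoVP16 peaks (2 to 9) and 5 EoV5 peaks (2 to 7). Sox17 stood above the median with EoV5 alone: its 7 EoV5 peaks exceeded the count of 66.5% of coding genes, while its 2 EoGFP peaks exceeded that of 21.1%. Sox7 was low in each list: 10.4% of coding genes had fewer EoVP16 peaks than its 1, and 26.2% had fewer EoV5 peaks than its 3. Sox18 stood highest with EoVP16, where its 8 peaks exceeded the count of 65.3% of coding genes. With the lists added, Sox17 had 14 peaks, Sox7 had 7 and Sox18 had 20, against a median of 19 over coding genes (10 to 29). The SoxF genes are short, and the 7926 coding genes of at most 10 kb had a median of 15 (4 to 27). Among these, 46.8% had fewer peaks than Sox17, 31.5% fewer than Sox7 and 59.5% fewer than Sox18. The lists hold different minimum pileups, so counts are compared with other genes of the same list and not between lists.

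Overlap between Eomes and Brachyury peaks near the SoxF genes was seen at 2 sites, the distal Sox17 region and the end of Pinx1. Of 8 EoGFP peaks, 2 overlapped a BraGFP peak by at least 1 bp (25%, 7.15 to 59.1), against 27.1% of the whole EoGFP list. Of 6 BraGFP peaks, 2 overlapped an EoGFP peak (33.3%, 9.68 to 70.0), against 29.3% of the whole BraGFP list. Of 12 EoVP16 peaks, 2 overlapped a BraGFP peak (16.7%, 4.70 to 44.8), against 25.7% of that list, and of 15 EoV5 peaks, 2 did (13.3%, 3.74 to 37.9), against 20.9%. The intervals are wide at these numbers and cover both smaller and larger shares than those of the whole lists.

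Among the Eomes constructs, all 8 EoGFP peaks near the SoxF genes overlapped an EoVP16 peak (67.6 to 100%), against 70.9% of the whole EoGFP list. With EoV5 the overlap was 5 of 8 (62.5%, 30.6 to 86.3), against 79.6%. Of 12 EoVP16 peaks, 8 overlapped an EoGFP peak (66.7%, 39.1 to 86.2), against 57.9% of that list, and 6 overlapped an EoV5 peak (50.0%, 25.4 to 74.6), against 56.9%. Of 15 EoV5 peaks, 5 overlapped an EoGFP peak (33.3%, 15.2 to 58.3), against 61.2% of the whole EoV5 list, and 6 overlapped an EoVP16 peak (40.0%, 19.8 to 64.3), against 53.1%. The share of EoV5 peaks with an EoGFP partner was the one interval that lay below the value of the whole list. Peaks around 3 genes are not independent of each other, and this difference was not tested. Within it, the 9 EoV5 peaks held by that list alone had pileups between 62 and 204 fragments, and 4 of them stood near Sox17.

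Joined wherever they overlapped, the 41 peaks made 25 regions, 8 near Sox17, 4 near Sox7 and 13 near Sox18. All 4 lists held 2 of the 25 (8.00%, 2.22 to 25), against 8.30% of the 71919 regions of the whole lists. A single list held 16 of the 25 (64.0%, 44.5 to 79.8), against 53.1%. By pattern, EoV5 alone held 9 of the 25 regions (36%, 20.2 to 55.5), against 14.5% of all regions. BraGFP alone held 4 (16.0%), against 23.0%, and EoVP16 alone held 3 (12.0%), against 13.6%. EoGFP alone held none, and over all regions that share was 2.03%. All 3 Eomes lists without BraGFP held 3 (12.0%), against 14.5%. EoGFP with EoVP16 held 3 (12.0%), against 4.50%, and EoVP16 with EoV5 held 1, against 4.27%. EoGFP with EoV5 held 0, against 8.61%. These differences rest on few regions of 3 loci and were not tested. The 3 regions of EoGFP with EoVP16 and without EoV5 were all near Sox18, where EoV5 had other peaks. Of the authors' deposited merged regions, which join EoGFP and BraGFP, 3 lay near Sox17, 2 near Sox7 and 7 near Sox18.

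Peaks at ends of neighbouring genes made up much of the EoGFP and EoVP16 sets. Within 1 kb of an end of another coding gene lay 4 of 8 EoGFP, 1 of 6 BraGFP, 6 of 12 EoVP16 and 2 of 15 EoV5 peaks. At an end of a SoxF gene itself lay 1 BraGFP, 1 EoVP16 and 1 EoV5 peak. Over the whole lists, an end of a coding gene was within 1 kb of 27.7% of EoGFP, 16.1% of BraGFP, 27.9% of EoVP16 and 16.1% of EoV5 peaks. Without those at other genes, 4 EoGFP, 5 BraGFP, 6 EoVP16 and 13 EoV5 peaks were left near the SoxF genes. Which gene, if any, responds to a peak cannot be read from position.

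EoVP16 and EoV5 are different Eomes constructs, and the labels do not say how much of the Eomes protein EoVP16 holds. Their heights can be set side by side at the 6 pairs of overlapping peaks. Pileups are not scaled to depth, so each ratio of EoVP16 to EoV5 is read against the 20617 pairs of the whole lists. Their median was 0.590 (interquartile range 0.355 to 0.836). A pair needs a peak in both lists, and 56.9% of EoVP16 peaks overlapped an EoV5 peak. EoVP16 sites with EoV5 signal under its minimum are missing from these pairs, which may leave out high ratios. Inside Sox17 the ratio was 0.421 (0.302 to 0.579) and at the upper end of Sox17 it was 0.613 (0.398 to 0.933). At the distal Sox17 region shared by all 4 lists it was 1.11 (0.839 to 1.47), higher than in 93.1% of pairs, and its interval did not overlap that inside the gene. At Pinx1 near Sox7 the ratio was 0.891 (0.654 to 1.21) and at Uckl1 it was 0.761 (0.649 to 0.892).

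The site 4.06 kb from Sox18 had the highest of these ratios, 1.81 (1.33 to 2.47), which was higher than in 99.8% of all pairs. The EoV5 pileup of this site, 68 fragments, was close to the minimum of 60 of that list, so its rank is among pairs that passed both minimums. Each ratio compares 1 library with 1 library, with no replicate behind it. Summits of the pairs lay 115, 13 and 33 bp apart at the 3 Sox17 pairs, 198 bp at Pinx1, and 39 and 44 bp at the 2 Sox18 pairs, against a median of 27 bp over all pairs (11 to 67). At 5 of the 6 pairs the distance was larger than that median.

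**Figure D4:**
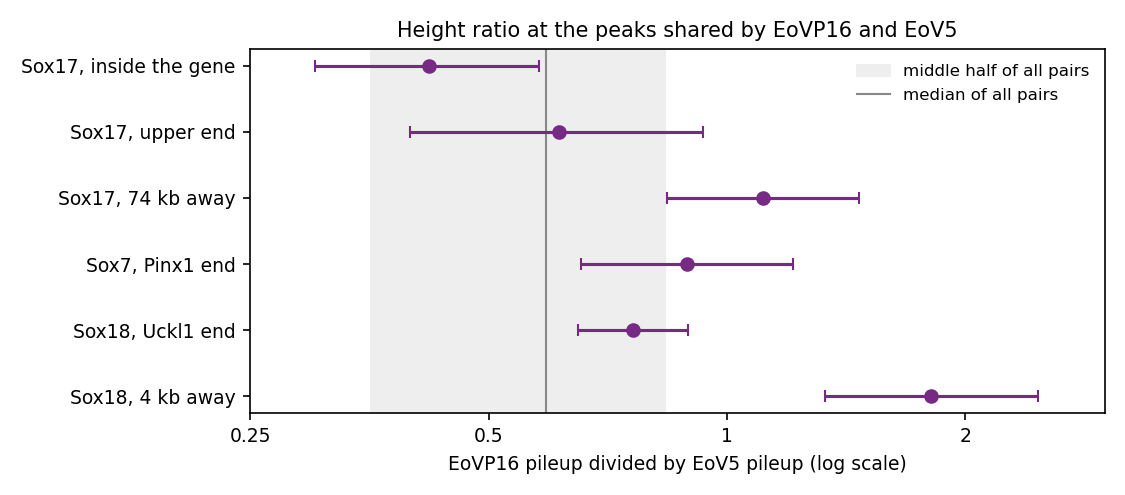
EoVP16 pileup divided by EoV5 pileup (x axis, log scale) at the 6 pairs of overlapping peaks near the SoxF genes, with 95% intervals for counting error. The line and the grey band are the median (0.590) and interquartile range of all 20617 pairs. The pair 4 kb from Sox18 lies farthest to the right, at 1.81.

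Other genes with related roles had higher median counts of peaks around them, though the ranges overlapped those of the SoxF genes. Summed over the 4 lists, the SoxF genes had a median of 14 peaks within 100 kb (7 to 20). The 16 other Sox genes listed had a median of 25 (2 to 61), led by the SoxD genes Sox6 with 61 and Sox5 with 58, both of which are very long genes. The 16 genes of definitive endoderm had a median of 26.5 (12 to 49), led by the nuclear receptor gene Hnf4a with 49 and the GATA factor gene Gata4 with 42. The 16 vascular and lymphatic genes had a median of 25.5 (5 to 42), led by the ETS factor genes Fli1 with 42 and Etv2 with 38. Sox18, the highest of the SoxF genes, was exceeded by 10 of the other Sox genes, 12 of the endoderm genes and 11 of the vascular genes. Sox7 had more peaks than 1 of the other Sox genes, none of the endoderm genes and 2 of the vascular genes. Gene length and neighbourhood differ between these lists, and their part in the difference was not tested.

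By list, the medians within 100 kb ran the same way in all 4 lists. For EoGFP the SoxF genes had a median of 2 peaks, against 6 for other Sox genes, 6.5 for endoderm genes and 6 for vascular genes. For BraGFP the medians were 2 for SoxF genes, against 3, 3.5 and 4 for the same 3 lists in that order. For EoVP16 they were 3 for SoxF genes, against 7, 7.5 and 7, and for EoV5 5 for SoxF genes, against 7.5, 10.0 and 7. The medians over coding genes given earlier lay at or above those of the SoxF genes in each list.

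The listed genes with the counts most like each SoxF gene were found by Euclidean distance over the 4 counts within 100 kb. Nearest to Sox17 was Lmo2, a LIM adaptor gene of blood and vessels, at a distance of 2.83, with 4 EoGFP, 2 BraGFP, 5 EoVP16 and 7 EoV5 peaks. Cer1, a secreted antagonist, and Tek, the angiopoietin receptor, followed at 3.00 each. Nearest to Sox7 was Cdh5, the endothelial cadherin, at 1.41, with 0 EoGFP, 2 BraGFP, 0 EoVP16 and 3 EoV5 peaks, and then Sox14 at 2.00. Nearest to Sox18 was Tal1, a bHLH factor gene of blood, at 2.24, with 5 EoGFP, 4 BraGFP, 7 EoVP16 and 5 EoV5 peaks, and then Sox13 at 2.65.

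At the border of the 100 kb windows, the peaks just inside were those of the distal Sox17 region at 74.4 kb, of Pinx1 at 83.3 to 83.4 kb and of Uckl1 at 88.2 to 88.4 kb, apart from the BraGFP peaks of Sox18, the outermost of which was at 7.80 kb. The peak just outside that came closest was an EoV5 peak 101.1 kb from Sox17 (4598178 to 4598896), with 155 fragments. For Sox7 the next peaks were a BraGFP peak at 116.9 kb and an EoVP16 peak of 36 fragments at 126.1 kb, and for Sox18 a BraGFP peak at 131.8 kb. The EoV5 list had no peak between 83.4 and 262.9 kb from Sox7.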

How the data were processed

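ChIP-seq peak lists of 4 constructs were used, grouped by construct as the sample titles give it. Per the submitters' processing notes, the build was mm10 and the tools named included MACS2 2.1.1.20160309.4, Bowtie2 2.3.4, bedtools 2.27.0 and SAMtools 1.3.1. Their order, settings and control are not given, nor is how EoGFP and BraGFP libraries were combined, in the sources used here. The signal in the deposited EoVP16 and EoV5 lists counts fragments stacked on the summit (pileup), and its whole numbers show no scaling to depth. The ratio in these deposited lists is each summit's fold enrichment above the caller's background. These lists have no header, and their columns follow the order of a MACS2 table. The minimum pileups are those written in the deposited files' names. Depth is unknown from these lists, and no value was scaled to it.

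Peaks on unplaced contigs (4 to 7 per list) and repeated entries (4 to 46) were left out, leaving 21 chromosomes. Starts in the lists without heights were taken as counted from 0. Distances were taken between peak midpoints and gene spans of the RefSeq GRCm38.p6 table (21887 coding genes), which has no strand or exons. Overlap means at least 1 bp. Each EoVP16 peak was paired with the overlapping EoV5 peak. Python 3.11.15, pandas 2.3.3, numpy 2.4.6 and scipy 1.17.1 were used, and distances and overlaps were tested on simulated data. Promoter sequences are RefSeq's.

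No tests were made. Members and gene lists were chosen with earlier results of these data known. Named genes were the 3 SoxF genes, the 2 of each list with most peaks, any with 0 peaks (there were none), the 2 most alike in counts to each SoxF gene, and the coding genes nearest to described peaks. Alternatives covered windows of 50 and 10 kb, the nearest gene, the wider or taller 50% of each list, any base in the window, the overlap rule and fold enrichment in place of pileup.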

Additional observations from a re-analysis of the deposited data

How the results depend on the processing

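Of 47 alternative values of 13 results, 22 stayed near the value reported and 25 moved. With a window of 50 kb, 3 EoGFP and 5 EoVP16 peaks were left (8 and 12 at 100 kb). The 4 BraGFP and 10 EoV5 peaks left there (6 and 15 at 100 kb) were counted as near the value reported. A change from 99.4% to 94.2% in the list share below the tallest EoVP16 peak near Sox18 was counted as moved. Counts and list shares were thus not judged alike, and the split of 22 and 25 depends on that. At 50 kb no EoGFP or BraGFP peak near a SoxF gene overlapped the other list (0 and 0). There 0 regions were held by all 4 lists, since both shared regions lie farther out. In that window the tallest EoVP16 peak exceeded 53.2% of its list near Sox17 and 94.2% near Sox18, and the tallest EoV5 peak exceeded 4.01% near Sox7 and 83.6% near Sox18. No EoVP16 peak lay within 50 kb of Sox7, so no value could be given there. With 10 kb, 2 EoGFP, 2 BraGFP, 4 EoVP16 and 5 EoV5 peaks were left. Where the SoxF gene had to be the nearest coding gene, the counts were 3, 3, 5 and 9 in the same order of lists. In the wider 50% of EoGFP and BraGFP they were 5 and 3, in the taller 50% of EoVP16 and EoV5 they were 5 and 6, and 1 region was held by all 4 lists. Without peaks at ends of other coding genes, an alternative chosen after seeing the data, 4 EoGFP and 6 EoVP16 peaks and 1 region held by all 4 lists were left. Fold enrichment in place of pileup, any base in the window, and the overlap rule moved none of the results they were tried on.

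No paired analysis was possible because each construct has 1 peak list and no test was made. For the same reason no replicate was left out. EoGFP and BraGFP peaks were ranked by width for want of heights, and unequal minimum pileups and unknown depth limit what a missing peak shows.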
